A study of Mus musculus with 12 samples.

Results

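Cytotoxic CD4 T cells are helper-lineage T cells that carry granzymes, the proteases that killer T cells pass into their targets. Most CD4 T cells act by signals such as CD40 ligand and cytokines, and killing is mainly the work of CD8 T cells and natural killer (NK) cells. CD4 T cells with granzymes are known from chronic infection, ageing and inflamed tissue, where they are often clonally expanded, that is, many cells carry the same rearranged T cell receptor.

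The cells described here are brain T cells that carried at least 1 unique molecular identifier (UMI, a counted RNA molecule) of Cd4, none of Cd8a, Cd8b1, Trdc or Foxp3, and at least 2 of Gzma and Gzmb together. There were 213 of them among 2794 cells that passed the same Cd4, Cd8, Trdc and Foxp3 criteria (the CD4 gate), and among 17962 cells with at least 500 genes and at most 10% mitochondrial UMIs. They are called granzyme CD4 cells below, and the 2476 CD4-gated cells with 0 UMIs of both granzymes are called granzyme-negative CD4 cells. The granzyme genes chose the cells, so their levels are a description. Gzma lies on chromosome 13 at 113093824 to 113100981 and Gzmb on chromosome 14 at 56258836 to 56262334 (GRCm38).

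The study sorted CD4, CD8 and γδ T cells from perfused half-brains of 9-month-old female littermates and read RNA and T cell receptors of the same cells. Wild-type (WT) mice gave the pools WT-1 (10 mice) and WT-2 (8 mice). Hemizygous 5XFAD mice, a C57BL6 congenic amyloid line, gave 5XFAD-1 (4 mice) and 5XFAD-2 (3 mice). Hemizygous PS19 mice, which express mutant human tau (MAPT) from the mouse prion protein promoter and derive from B6C3F1/J, gave 1 pool of 4 mice. Bigenic mice with both transgene sets (PS-5X) gave 1 pool of 4 mice. All 4 genotypes came from crosses of the 2 lines, so the amyloid pools are 5XFAD-1, 5XFAD-2 and PS-5X, and the tau pools are PS19 and PS-5X. Each pool is 1 library of several animals with no map from cells to mice, so the pool is the replicate. A separate sequencing run was used for WT-2 together with 5XFAD-2.

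The pools held 854 to 6373 barcodes and 5883210 to 38616794 UMIs. Of 18208 distinct cell barcode sequences 166 occurred in more than 1 pool, and 5 granzyme CD4 cells had such a barcode. For these 5 the pools were WT-1 and 5XFAD-1. Pool WT-1 also shared receptors with pool 5XFAD-1: 7 of its 17 granzyme CD4 cells had both receptor chains, to the nucleotide, of a 5XFAD-1 cell, and none had those of WT-2, 5XFAD-2, PS19 or PS-5X. Of the PS19 cells 5 had a receptor found in another pool. A further 2 cells of WT-1 and 6 of 5XFAD-1 had a β chain alone, identical to that of the larger 5XFAD-1 clone. The main values of WT-1 are therefore also given without the 7 cells, and the comparisons of genes without them or without WT-1 where that changes a call.

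The receptor sequences come first because 2 clones made up 66 of the 100 granzyme CD4 cells of 5XFAD-1. The junctions (CDR3) of their β and α chains are shown with those of the clones with most granzyme CD4 cells in PS-5X and PS19, for contrast. Capitals mark bases outside the start shared with at least 25% of the contigs of the same V gene and outside the end shared with at least 25% of those of the same J gene; all are written 5′ to 3′ as deposited.
5XFAD-1, 39 granzyme CD4 cells, β chain TRBV5/TRBJ1-6: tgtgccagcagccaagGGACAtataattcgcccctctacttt
5XFAD-1, same clone, α chain TRAV9-4/TRAJ57: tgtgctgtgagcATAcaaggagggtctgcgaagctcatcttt
5XFAD-1, 27 granzyme CD4 cells, β chain TRBV5/TRBJ2-7: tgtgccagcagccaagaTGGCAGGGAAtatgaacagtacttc
5XFAD-1, same clone, α chain TRAV8D-1/TRAJ13: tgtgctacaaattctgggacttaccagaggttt
PS-5X, 4 granzyme CD4 cells, β chain TRBV10/TRBJ1-6: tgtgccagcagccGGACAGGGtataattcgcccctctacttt
PS-5X, same clone, α chain TRAV12-3/TRAJ32: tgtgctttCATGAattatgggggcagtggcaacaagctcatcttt
PS19, 3 granzyme CD4 cells, β chain TRBV19/TRBJ2-1: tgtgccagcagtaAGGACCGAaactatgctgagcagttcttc
PS19, same clone, α chain TRAV14D-3-DV8/TRAJ53: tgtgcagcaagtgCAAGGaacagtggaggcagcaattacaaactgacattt
The 2 clones of 5XFAD-1 used the same β V gene with different J genes and different α chains. The α junction of the second had no base outside the shared V and J ends.

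One pool dominated the granzyme CD4 cells. Pool 5XFAD-1 held 100 of the 213 cells, or 46.9% (exact 95% binomial interval 40.1% to 53.9%). PS-5X held 41, WT-2 23, PS19 22, WT-1 17 and 5XFAD-2 10. Per mouse in the pool this was 25 cells in 5XFAD-1, 10.25 in PS-5X, 5.5 in PS19, 3.33 in 5XFAD-2, 2.88 in WT-2 and 1.7 in WT-1, counts that also depend on how many cells of each pool were loaded.

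As a share of the CD4 gate, granzyme CD4 cells were 21.8% in 5XFAD-1 (100 of 458 cells, interval 18.1% to 25.9%) and 12.7% in WT-1 (17 of 134, 7.57% to 19.5%). The other 4 pools lay between 3.07% and 5.25%. Their values were 3.07% in 5XFAD-2 (10 of 326), 3.63% in WT-2 (23 of 633), 4.76% in PS19 (22 of 462) and 5.25% in PS-5X (41 of 781). The interval of 5XFAD-1 lay above those of WT-2, 5XFAD-2, PS19 and PS-5X, all of which also lay below the 7.57% lower bound of WT-1; these intervals cover counting error only. Without cells that had a receptor of another pool the share in WT-1 was 9.17% (10 of 109, interval 4.49% to 16.2%), which overlapped those of the other pools except 5XFAD-1.

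**Figure D1:**
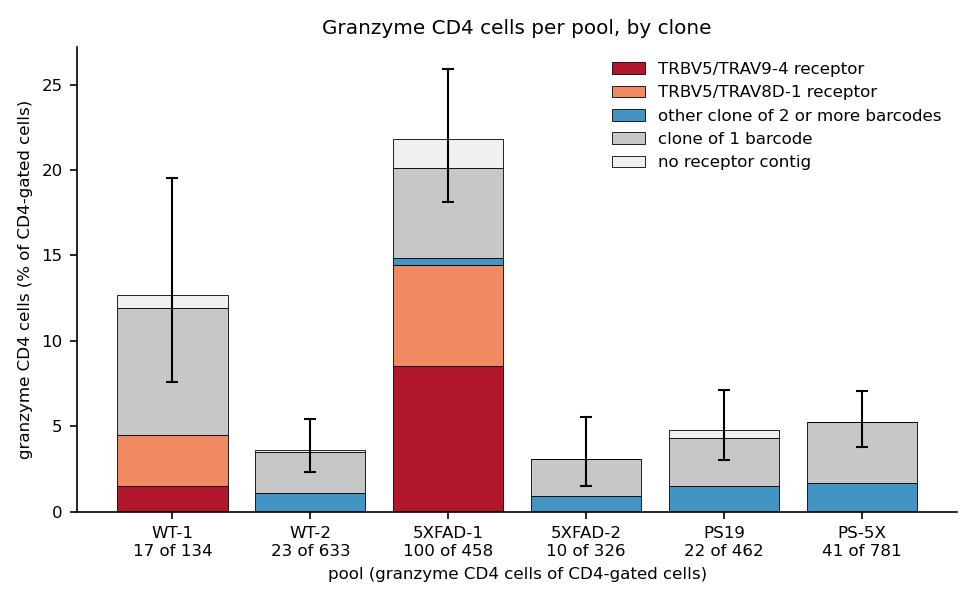
Granzyme CD4 cells as a percentage of CD4-gated cells (y axis) in each of the 6 pools (x axis), stacked by the clone the cells belonged to; bars with caps are exact 95% binomial intervals for the whole column. The 2 TRBV5 receptors fill most of the 5XFAD-1 column, which reaches 21.8%, and recur in WT-1 and in no other pool.

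The share did not differ detectably between genotypes with and without amyloid. It was 10.1% ± 10.3 (SD, n = 3) in the amyloid pools and 7.03% ± 4.93 (SD, n = 3) in the others, a difference of 3.02 percentage points (exact two-sided permutation test, p = 0.8, where 3 pools against 3 cannot go below 0.1). The sign of that difference rested on 5XFAD-1: without that pool the amyloid pools were lower by 2.87 points. Without the 2 large clones of 5XFAD-1 the amyloid pools were lower by 1.28 points, but the WT-1 cells with the same receptors were kept there. With cells whose receptor occurred in another pool left out of every pool, the amyloid pools were higher by 0.331 points. Among pools of the other sequencing run the difference was 4.82 points and in the separate run it was -0.566 points.

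Free RNA gives stray UMIs in droplet data, so the same threshold was read in cells that should lack granzymes. Among γδ T cells, with UMIs of Trdc and of Il17a or Cd163l1 and none of Cd4 or Cd8, 9 of 590 (1.53%) had 2 or more granzyme UMIs, at a median depth of 6741 UMIs. In the CD4 gate the share was 7.62% at 5567 UMIs. By pool, the γδ share was 2.48% in 5XFAD-1, 2.12% in PS-5X, 1.90% in WT-2 and 0 in the other 3 pools (of 28 to 95 cells), against CD4 shares of 21.8%, 5.25% and 3.63% in the first 3. Thinned to 2000 UMIs a cell, with 103 shallower CD4-gated cells left out, the share was 17.5% in 5XFAD-1, 14.5% in WT-1 and 0.966% to 3.54% in the other 4 pools. Just outside the threshold lay 105 CD4-gated cells with 1 granzyme UMI, with a median of 8 Ccl5 UMIs. Just inside it lay 26 cells with 2 and 22 with 3, with medians of 22.5 and 33.5 Ccl5 UMIs, against 116 in the 165 cells with 4 or more and 0 in granzyme-negative cells.

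The label of the cells was held against defining markers. All 213 had UMIs of the CD3 genes Cd3e, Cd3d or Cd3g, the signalling chains of the T cell receptor, and 201 had a receptor contig. Summed CD3 levels were 2370 to 4274 CPM (UMIs scaled to a common library total) over the 6 pools, against 2628 to 3164 in granzyme-negative CD4 cells. Of the NK list (Ncr1, Klrb1c, Tyrobp, Fcer1g and Klra8) all 5 genes had a UMI somewhere, and their summed level was 0 CPM in WT-1 to 271 CPM in PS19. Granzyme-negative CD4 cells had 14.6 CPM (PS-5X) to 233 CPM (5XFAD-2), and 75.3 CPM in PS19. The 22 granzyme CD4 cells of PS19 held 33 UMIs of Fcer1g, 24 of Tyrobp and 9 of Ncr1, whose part in the values of that pool was not tested. Of the B cell list, Cd79a and Ms4a1 were at 0. Of the microglia and macrophage list, C1qa and Lyz2 were at 0, and the sum of 126 to 318 CPM included Cx3cr1, which effector T cells also express. All 4 haemoglobin genes were at 0. The 6 regulatory T cell genes besides Foxp3 summed to 322 to 926 CPM in 5 pools and to 1680 CPM in 5XFAD-2, whose granzyme-negative cells had 660 CPM. There Ctla4 was 658 CPM (44 UMIs) and Ikzf2 269 CPM (18 UMIs), summed over 10 granzyme CD4 cells without Foxp3 UMIs. How many of the 10 cells held these UMIs was not counted, and the part of such genes in the results was not tested. Cells with 2 or more Cd8b1 UMIs carried a Cd4 UMI in 374 of 10888 cases (3.43%), and 51 of the 213 granzyme CD4 cells rested on a single Cd4 UMI. These were 12 of 23 cells in WT-2, 5 of 10 in 5XFAD-2, 17 of 41 in PS-5X and 7 of 22 in PS19. In WT-1 they were 2 of 17 and in 5XFAD-1 8 of 100, so the CD4 label rested on less in the other pools. Of the 5 genes given with the definition, Ccl5 was high in every pool, whereas Havcr2 and Lag3 were not: Havcr2 was at 0 CPM in PS19 and Lag3 at 6.39 CPM in WT-2.

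Both granzymes were not carried alike. Granzyme A and granzyme B are proteases of different specificity, granzyme B being the one best known for starting apoptosis. Of the 213 cells, 125 had 2 or more UMIs of Gzmb alone, 30 of Gzma alone and 55 of both, and 3 had 1 UMI of each. Cells with Gzma alone were 9 of 23 in WT-2, 7 of 22 in PS19 and 8 of 41 in PS-5X, but 4 of 100 in 5XFAD-1, 2 of 17 in WT-1 and 0 of 10 in 5XFAD-2. All 10 cells of 5XFAD-2 had Gzmb and no Gzma UMI, with a highest Gzmb of 20 UMIs. The highest Gzma count in a cell was 282 UMIs, in PS-5X, and the highest Gzmb count 64, in 5XFAD-1. As summed levels, Gzma was highest in 5XFAD-1 at 2964 CPM, followed by PS19 at 1897, PS-5X at 1852, WT-1 at 1251, WT-2 at 1181 and 5XFAD-2 at 0. Gzmb was again highest in 5XFAD-1 at 1783 CPM, followed by WT-1 at 1233, PS-5X at 944, 5XFAD-2 at 838, WT-2 at 530.0 and PS19 at 303. The low Gzmb of PS19 and the absent Gzma of 5XFAD-2 set those pools apart, the latter from 10 cells.

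**Figure D2:**
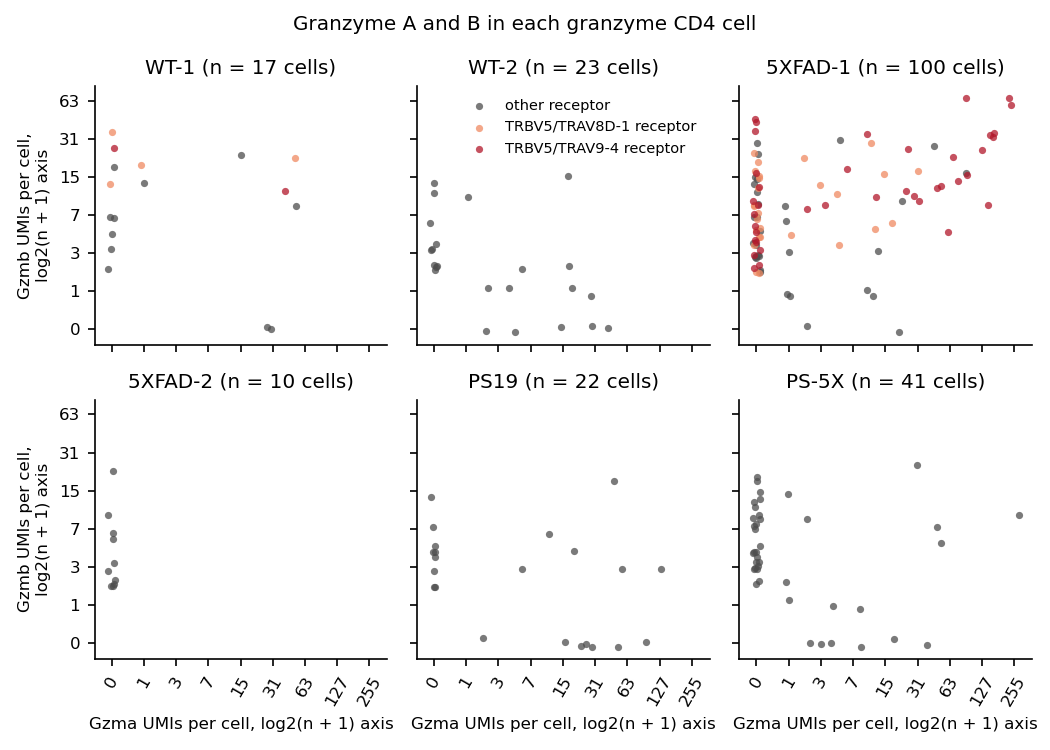
Gzma UMIs (x axis) against Gzmb UMIs (y axis) in each granzyme CD4 cell, both on log2(n + 1) axes with a small jitter, 1 panel per pool, coloured by receptor. Cells of the TRBV5/TRAV9-4 receptor reach the highest Gzma counts in 5XFAD-1, cells with Gzma and no Gzmb lie along the lower edge in WT-2, PS19 and PS-5X, and the 10 cells of 5XFAD-2 all lie at 0 Gzma UMIs.

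Granzyme CD4 cells were more often in expanded clones than granzyme-negative CD4 cells in all 6 pools, but in WT-1 only through cells with receptors of 5XFAD-1. Clones are those the authors' receptor tables assign, and a clone is called expanded when its receptor was found on 2 or more barcodes of the pool. Among granzyme CD4 cells with a receptor, 73.9% were expanded in 5XFAD-1 (68 of 92), 37.5% in WT-1 (6 of 16), 35% in PS19 (7 of 20), 31.8% in WT-2 (7 of 22), 31.7% in PS-5X (13 of 41) and 30% in 5XFAD-2 (3 of 10). Among granzyme-negative CD4 cells the range was 8.41% in WT-1 to 20.8% in 5XFAD-1, so the 2 classes did not overlap across pools. All 6 expanded cells of WT-1 had a receptor of the 2 large 5XFAD-1 clones. Without cells that had a receptor of another pool, WT-1 had 0 of 9 expanded, which allows a share of up to 33.3%, against 1 of 89 granzyme-negative cells (1.12%). The mean difference was 25.4 ± 14.6 percentage points (SD, n = 6 pools), higher in 6 of 6 pools (exact two-sided sign-flip permutation test over pools, p = 0.03125, the smallest p that 6 pools allow). Leaving out any 1 pool gave 19.9 to 27.7 points, where 5 pools cannot go below 0.0625. Leaving out cells whose receptor occurred in another pool lowered the difference to 9.49 points over 5 pools (exact sign-flip p = 0.125). Leaving out the 2 large clones in 5XFAD-1, but not the WT-1 cells with their receptors, gave 14.7 points over 6 pools (exact sign-flip p = 0.0625). Leaving out only the shared cells of WT-1 gave 20.4 points, higher in 5 of 6 pools (exact sign-flip p = 0.0625).

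Granzyme CD8 cells, defined by 0 Cd4 UMIs, at least 1 Cd8a or Cd8b1 UMI and the same granzyme threshold, were in expanded clones in 28.1% (WT-1) to 64.5% (WT-2) of cases. The granzyme CD4 share was above that of granzyme CD8 cells in 5XFAD-1 and WT-1 and below it in the other 4 pools. In WT-1 this turned without cells that had a receptor of another pool, with 0 of 9 against 2 of 30 (6.67%).

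The 201 cells with a receptor comprised 121 clones, 97 of them seen on 1 barcode. Only 12 clones had 2 or more granzyme CD4 cells. The TRBV5/TRAV9-4 clone of 5XFAD-1 covered 53 barcodes, of which 49 fell in the CD4 gate, 39 were granzyme CD4 cells, 3 had 1 granzyme UMI and 7 had none. The 7 without were not shallow, with a median of 9774 UMIs against 8496 in the 39. The TRBV5/TRAV8D-1 clone covered 29 barcodes, with 28 in the CD4 gate and 27 granzyme CD4 cells. In contrast, the largest PS-5X clone with granzyme CD4 cells (TRBV10/TRAV12-3) covered 23 barcodes, and 4 of its 17 CD4-gated cells passed the granzyme threshold. In PS19, a TRBV5/TRAV12-3 clone of 7 barcodes had 2 granzyme CD4 cells among 6 in the CD4 gate. The share of CD4-gated cells that passed the threshold was 96.4% in the TRBV5/TRAV8D-1 clone, 79.6% in the TRBV5/TRAV9-4 clone and 23.5% in the PS-5X clone.

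The same clones were read for their lineage, which the granzyme threshold does not touch. Of 70 other cells of these clones that passed the cell filters, 55 had a Cd4 UMI, 10 of them together with a Cd8 UMI, 1 had a Cd8 UMI without Cd4, and 14 had neither. Invariant NKT receptors (TRAV11 with TRAJ18) were found on 11 granzyme CD4 cells, 4 in WT-2, 4 in 5XFAD-1, 2 in PS-5X and 1 in 5XFAD-2, each a clone of its own. TRBV5, the β V gene of both large clones, was found in 18 of 93 granzyme CD4 clones with both chains (19.4%, interval 11.9% to 28.9%) and in 208 of 1761 such granzyme-negative CD4 clones (11.8%, interval 10.3% to 13.4%), each clone counted once. Without receptors shared between pools it was 13 of 85 (15.3%, interval 8.40% to 24.7%) against 200 of 1735 (11.5%, interval 10.1% to 13.1%), and the intervals overlapped. By pool these 13 clones were 5 of 20 in WT-2, 4 of 11 in PS19, 2 of 29 in PS-5X, 1 of 14 in 5XFAD-1, 1 of 6 in WT-1 and 0 of 5 in 5XFAD-2. TRBV5 was singled out after its values were seen, and the difference was not tested.

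The 2 large clones of 5XFAD-1 are described by summed UMIs of the cells of each, with exact 95% Poisson intervals. These cover counting error only and neither the spread between cells nor that between pools, since there is 1 pool. The spread between cells was wide for Gzma: 33 of the 66 cells had no UMI and the highest had 229. Gzma was 5010 CPM (4784 to 5245) in the 39 TRBV5/TRAV9-4 cells and 575 CPM (469 to 699) in the 27 TRBV5/TRAV8D-1 cells, and Gzmb 2022 and 1619 CPM. Mki67, a proliferation marker, was 445 CPM (380 to 519) in the first, with a UMI in 12 cells, and 16.9 CPM (3.49 to 49.5) in the second, with a UMI in 2 cells. Klrk1, which encodes the activating receptor NKG2D, was 161 CPM in the first and had no UMI in the second. Tigit, an inhibitory receptor, was 366 CPM (307 to 434) and 700 CPM (582 to 834). Pdcd1, which encodes PD-1, was alike at 806 CPM (717 to 903) and 812 CPM (685 to 956), against 230 CPM (170 to 305) in the other 34 granzyme CD4 cells of the pool. Klf2, which keeps T cells in circulation, was 123 CPM in the first clone, without a UMI in the second, and 1026 CPM in the other 34 cells. Cd40lg was 30.1 and 5.64 CPM in the clones and 177 CPM in the other 34 cells, against 408 CPM in granzyme-negative CD4 cells of that pool. Intervals of the 2 clones overlapped for Pdcd1 and Cd40lg, and did not for Gzma, Mki67, Tigit, Klrk1 and Klf2. The share of all genes with intervals apart was not computed, and a difference between the clones was not tested.

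Across pools the granzyme CD4 cells fell into at least 2 profiles, by genes picked after their values were seen and therefore not tested. S1pr5 (a receptor for exit from tissue), Cx3cr1 (fractalkine receptor of circulating effector cells) and Klrg1 (a receptor of terminal effectors) had a UMI in 53 of the 213 cells. Pdcd1, Havcr2 (TIM-3), Lag3 and Itgae (the CD103 integrin of resident T cells) had a UMI in 135 cells. There were 37 cells with only the first set, 119 with only the second, 16 with both and 41 with neither. The first set alone marked 13 of 23 cells in WT-2 and 11 of 22 in PS19, 7 of 41 in PS-5X, 3 of 17 in WT-1, 3 of 100 in 5XFAD-1 and 0 of 10 in 5XFAD-2. The second set alone marked 82 of 100 cells in 5XFAD-1 and 11 of 17 in WT-1, but 4 of the 10 WT-1 cells without a receptor of another pool. Of the 66 cells of the large 5XFAD-1 clones 65 had a UMI of the second set, as did 22 of the other 34 cells of that pool. Of the 30 cells with Gzma alone 25 had a UMI of the first set, as did 12 of the 125 with Gzmb alone. Of the 55 cells with both granzymes, 16 had a UMI of the first set and 45 one of the second. Pools differed in granzymes as well as profiles, and 57 of the 125 cells with Gzmb alone came from 5XFAD-1. Granzyme and pool were not separated here.

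Summed over cells, S1pr5 was at 0 in 5XFAD-2 and at 1.37 CPM in 5XFAD-1, but 69.8 in WT-1, 107 in PS-5X, 139 in PS19 and 179 in WT-2. Cx3cr1 had the same order of groups, with 2.74 CPM in 5XFAD-1, 0 in 5XFAD-2 and 64.0 to 168 in the other 4 pools. Itgae was 174 CPM in 5XFAD-1 and 105 in WT-1, and 0 to 33.3 in the other 4. It was high where S1pr5 was near 0 in 5XFAD-1, but at 0 together with S1pr5 and Cx3cr1 in 5XFAD-2. In the 10 WT-1 cells without a receptor of another pool, Itgae was 28.2 CPM against 113 in all 17 and Pdcd1 244 CPM against 464, both without TMM scaling. Pdcd1 was 667 CPM in 5XFAD-1, 431 in WT-1 and 254 in 5XFAD-2, and 74.8 to 144 in PS19, WT-2 and PS-5X.

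**Figure D3:**
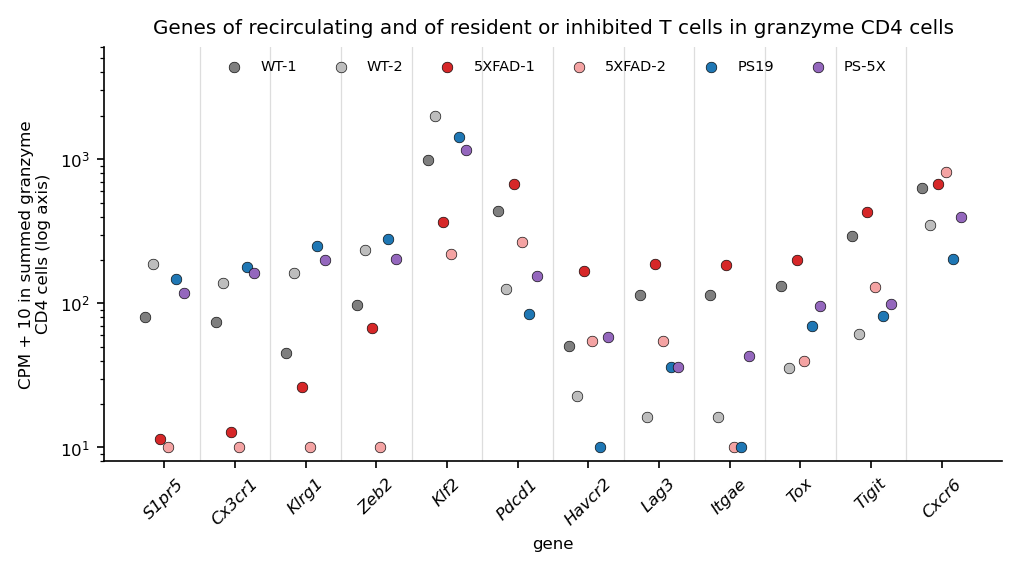
Level of 12 genes (x axis) in the summed granzyme CD4 cells of each pool, as CPM + 10 on a log axis (y axis), 1 point per pool. For S1pr5, Cx3cr1 and Klrg1 both 5XFAD pools lie lowest, and for Pdcd1, Lag3, Itgae and Tigit 5XFAD-1 lies highest with WT-1 next.

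Against granzyme-negative CD4 cells of the same pool, granzyme CD4 cells showed more of the killing machinery and of effector regulators, and less of helper molecules and of naive genes. UMIs of each class were added up within a pool, and the sums were compared by edgeR's quasi-likelihood test with the pool as a block and Benjamini-Hochberg adjustment. The classes are split by granzyme UMIs of the same cells, so the test says which other genes went with them. Of 8638 genes tested, 850 (9.84%) passed an adjusted p of 0.05, with 411 (4.76%) higher and 439 (5.08%) lower. The median log2 difference of all genes was -0.01.

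Of 11 genes of the cytolytic list, 9 were higher, Lamp1 was lower and Srgn did not pass, with a median log2 difference of 1.11 for the list. Nkg7, a granule membrane protein, had 1309 CPM in the lowest, 1438 in the median and 2600 in the highest pool of granzyme CD4 cells, and 379, 447 and 728 CPM in granzyme-negative cells. These 2 groups of 6 pools did not overlap, as for 361 (4.18%) of all genes tested, and the log2 difference was 1.70 ± 0.12 (SE; edgeR adjusted p = 2.5e-10). Prf1, the pore former perforin, rose from a median of 23.5 to 42.8 CPM (log2 difference 1.20 ± 0.25, edgeR adjusted p = 0.0016). Its groups were only just apart, at 29.1 CPM in the lowest granzyme CD4 pool (WT-1, 5 UMIs) and 28.7 CPM in the highest granzyme-negative pool (5XFAD-1). In 5XFAD-2 its level rested on 3 UMIs. Without 5XFAD-1 the edgeR adjusted p of Prf1 was 0.054, and thinned to 2000 UMIs a cell it was 0.22. Gzmk, a further granzyme, was higher in 5 of 6 pools, with a median of 236 CPM against 95.0 (log2 difference 1.62). Fasl, the ligand of the Fas death receptor, and Ctsw, a cathepsin of killer cells, were higher in 6 of 6 pools.

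Of chemokines and cytokines, 3 of 10 tested genes were higher and 2 lower. Ccl5 came with the definition and is given without a test: 3980 CPM in the lowest (5XFAD-2), 10756 in the median and 20258 in the highest pool (5XFAD-1) of granzyme CD4 cells, and 1084 to 2502 CPM in granzyme-negative cells. Of the 10 tested, Ifng, Ccl3 and Ccl4 were higher and Il2 and Il17a lower. Ifng had a median of 496 against 224 CPM and was higher in 6 of 6 pools. Il17a had 0 to 5.82 CPM in granzyme CD4 cells and up to 545 in granzyme-negative cells. Il2, a growth factor that helper cells release, fell from 44.5 to 63.0 CPM in granzyme-negative cells to 2.74 to 15.0 CPM.

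Among lineage and effector transcription factors 8 of 17 tested genes were higher and Gata3 was lower (list median 0.34). Tbx21 (T-bet, of type 1 and killer cells) was 157 to 427 CPM against 90.4 to 145, without overlap (log2 difference 1.18 ± 0.17, edgeR adjusted p = 3.6e-05). Runx3, which in CD8 T cells holds the killer fate, had a median of 239 against 162 CPM and was higher in 5 of 6 pools. Eomes, Prdm1 (Blimp-1), Zeb2, Hopx, Id2 and Bhlhe40 were the other 6. Zbtb7b (ThPOK), the factor that holds the CD4 fate against Runx3, had a median of 34.1 against 43.8 CPM and did not pass (log2 difference -0.40 ± 0.32, edgeR adjusted p = 0.55).

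**Figure D4:**
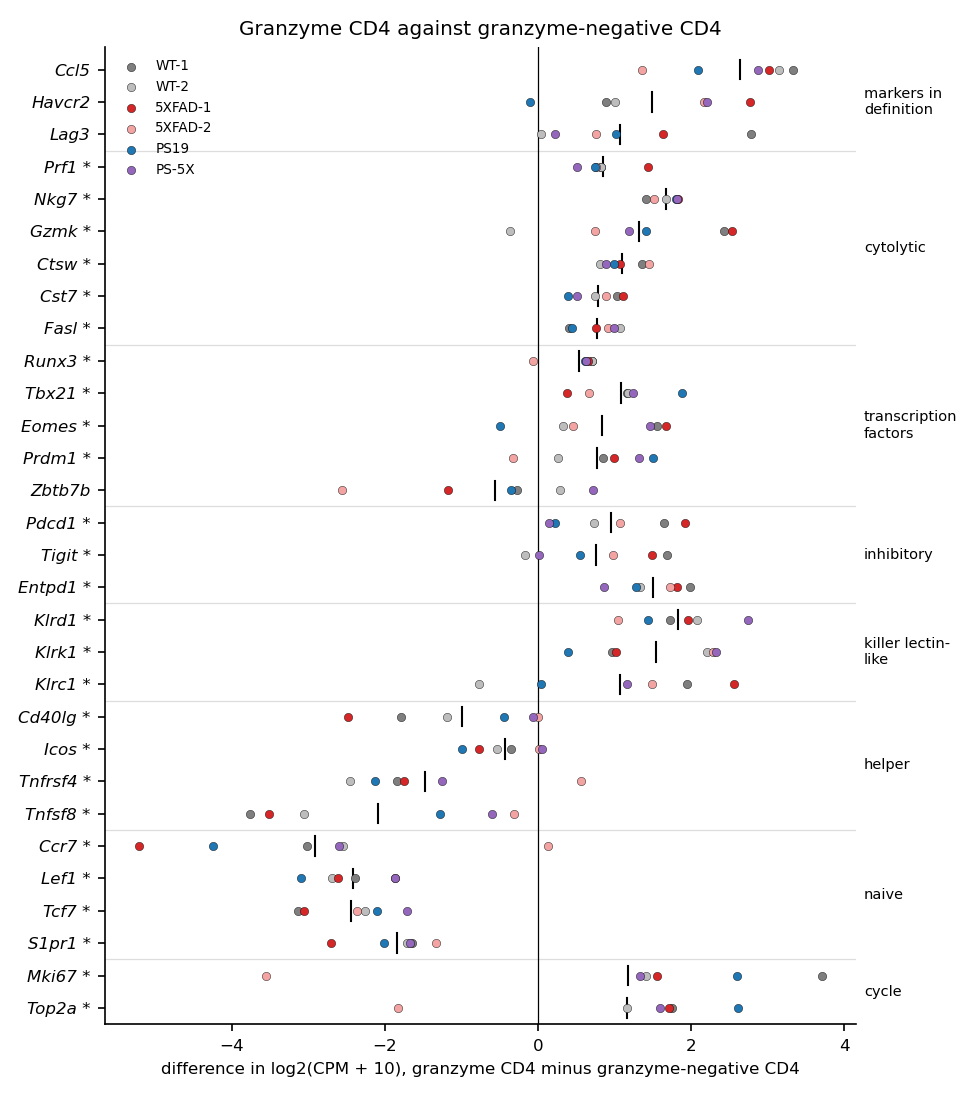
Difference in log2(CPM + 10) between granzyme CD4 and granzyme-negative CD4 cells (x axis) for 30 genes (y axis, grouped by list). Each point is 1 pool and the black tick the mean of 6 pools. A star marks an edgeR adjusted p under 0.05 and is withheld for Ccl5, Havcr2 and Lag3, which came with the definition. Prf1, Nkg7, Ctsw and Fasl lie to the right of 0 in all 6 pools, and Lef1, Tcf7 and S1pr1 to the left in all 6.

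Of 12 tested genes of the list of inhibitory receptors and exhaustion, besides the 2 that came with the definition, 5 were higher and 2, Btla and Cd200, lower. Pdcd1 was higher in 6 of 6 pools, at 74.8 to 667 against 63.1 to 170 CPM (log2 difference 1.10 ± 0.21, edgeR adjusted p = 0.00066). The others were the receptors Tigit and Cd160, the ectoenzyme Entpd1 (CD39) and the nuclear receptor Nr4a2. Havcr2 had a median of 42.8 against 2.37 CPM and Lag3 one of 35.5 against 14.3 CPM, given without a test. Of 8 killer lectin-like and NK receptor genes tested, Klrd1 (CD94), Klrk1, Klrc1, Klre1 and Klrg1 were higher. Klrd1 had 105 to 212 CPM in granzyme CD4 and 14.7 to 52.7 CPM in granzyme-negative cells, without overlap.

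Helper molecules were lower in 7 of 10 tested genes and Tnfrsf9 was higher (list median -0.83). Cd40lg, which licenses B cells and dendritic cells, was 67.1 CPM in the lowest pool (5XFAD-1), 247 in the median and 419 in the highest (5XFAD-2), against 382, 420 and 510 (log2 difference -1.01 ± 0.24, edgeR adjusted p = 0.0058). That call rested on 5XFAD-1 and on the pairing: without 5XFAD-1 the edgeR adjusted p was 0.065 and without the pool block 0.080. Tnfrsf4 (OX40), Tnfrsf18, Tnfsf8, Tnfsf11, Icos and Izumo1r were the others.

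All 13 genes of the naive and central memory list were lower in the test over pools, with a list median of -2.66. Single pools went the other way for Ccr7 (554 against 506 CPM in 5XFAD-2), Satb1 (419 against 225 in 5XFAD-2) and Klf2 (1980 against 1616 in WT-2). Lef1 and Tcf7, transcription factors of resting T cells, were 28.8 to 89.8 against 227 to 557 CPM and 42.4 to 170 against 428 to 726 CPM. S1pr1, the receptor for exit to lymph and blood, was 34.2 to 130 against 279 to 455 CPM. Against only those granzyme-negative cells that lacked UMIs of the naive markers used as a filter, 324 genes passed, 153 higher and 171 lower. In that comparison Bhlhe40, Cxcr6 and Id2 were no longer higher and Satb1 and Igfbp4 no longer lower (log2 differences -0.15, -0.32, -0.02, 0.44 and 0.65).

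Cell cycle genes were higher in 6 of 8 (list median 1.73). Mki67 had a median of 250 against 85.7 CPM and was higher in 5 of 6 pools, the exception being 5XFAD-2, with no Mki67 UMI in 10 cells (log2 difference 1.85 ± 0.31, edgeR adjusted p = 0.00021, and 0.27 with DESeq2). Cells with 2 or more UMIs of Mki67 and Top2a together were 15 of 100 in 5XFAD-1, 7 of 22 in PS19, 5 of 17 in WT-1, 5 of 41 in PS-5X, 2 of 23 in WT-2 and 0 of 10 in 5XFAD-2. Of 12 type 1 and cytotoxic CD4 genes 7 were higher, among them Slamf7, Il2rb and Il12rb2. Of 15 residency and adhesion genes 6 were higher and 2 lower. Itgae was among them (log2 difference 2.23 ± 0.50, edgeR adjusted p = 0.0037), higher in 4 of 6 pools and at 0 in PS19 and 5XFAD-2. Of 12 interferon response genes 4 were higher (Ifitm3, Irf7, Ly6a and Ifit3). Of 10 early receptor response genes Dusp2 was higher and Junb, Fos and Cd83 lower, and of 6 dissociation and heat shock genes Hsp90aa1 was higher.

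By size among genes with one direction in all 6 pools, the largest rises besides Ccl5, which came with the definition, included Klrd1, Kif22, Racgap1, Tm6sf1, Tmem163, Entpd1, Klrk1 and Plek. Racgap1, a cytokinesis regulator, was 64.0 to 217 against 12.1 to 38.2 CPM. The largest falls included H2-Aa, Igfbp4, Cd74, Nsg2, Actn1, Rflnb, H2-Eb1, Tdrp and St8sia6. H2-Aa, H2-Eb1 and Cd74 are antigen presentation genes of other cell types. Summed with H2-Ab1 they were 0 to 30.3 CPM in granzyme CD4 cells and 88.9 to 1654 CPM in granzyme-negative cells, where 29 cells had 10 or more Cd74 UMIs, 23 of them without a receptor. No granzyme CD4 cell had that many. With only cells that had both receptor chains, the log2 difference of Cd74 was -2.46 in place of -5.16, and H2-Aa and H2-Eb1 fell below the filter on low counts. The part of such cells in the other falls was not tested.

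Against granzyme CD8 cells of the same pools, granzyme CD4 cells had more of 4 of 10 helper genes and less of 5 of 11 cytolytic genes. Of 8216 genes tested in the same way, 213 (2.59%) passed, 128 (1.56%) higher and 85 (1.03%) lower in granzyme CD4 cells, with a median log2 difference of -0.01 over all genes. Without the pool as a block 28 genes passed.

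Of 10 helper genes tested, Cd40lg, Tnfrsf4, Icos and Izumo1r were higher. Cd40lg was 68.3 CPM in the lowest, 252 in the median and 428 in the highest pool of granzyme CD4 cells, against 1.99, 25.0 and 63.5 in granzyme CD8 cells. The groups did not overlap, as for 78 (0.949%) of all genes tested, and the log2 difference was 3.11 ± 0.26 (edgeR adjusted p = 8.2e-08). Tnfrsf4 had a median of 50.2 against 8.46 CPM and was higher in 6 of 6 pools. Of 16 transcription factors tested 2 were higher, Zbtb7b and Maf. Zbtb7b was 34.9 against 8.40 CPM in the median, higher in 5 of 6 pools, with no UMI in 5XFAD-2 (log2 difference 2.15 ± 0.42, edgeR adjusted p = 0.0038). Maf, a regulator of helper and IL-10 programs, was 34.2 to 240 against 8.66 to 48.5 CPM. Runx3 and Tbx21 gave log2 differences of 0.03 ± 0.14 and 0.20 ± 0.15 and did not pass (edgeR adjusted p = 0.99 and 0.70).

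Of 11 cytolytic genes tested, 5 were lower than in granzyme CD8 cells and none higher (list median -0.60). Prf1 was 29.8 CPM in the lowest, 43.9 in the median and 96.2 in the highest pool, against 118, 136 and 191, without overlap (log2 difference -1.45 ± 0.19, edgeR adjusted p = 4.2e-05). Cst7, a granule protease inhibitor, was 45.6 to 183 against 185 to 273 CPM. Nkg7, Lamp1 and Serpinb9 were the others, and the call for Nkg7 was lost in 10 of the alternatives, which gave adjusted p up to 0.28. Perforin RNA was thus between the other classes, above granzyme-negative CD4 and below granzyme CD8 cells.

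Receptors of the NK type differed too: Klrc1 (NKG2A) and Klrk1 were lower in 2 of 8 tested. Klrc1 had 0 to 201 CPM in granzyme CD4 and 177 to 381 CPM in granzyme CD8 cells. Of 13 inhibitory receptor genes Ctla4 was higher and Cd160 lower, whereas Pdcd1 gave -0.21 ± 0.22 (edgeR adjusted p = 0.80), Havcr2 1.13 ± 0.32 (0.058) and Lag3 0.27 ± 0.34 (0.85), on the log2 scale. Pdcd1, Havcr2 and Lag3 were all higher in granzyme CD4 than in granzyme CD8 cells in 5XFAD-1, and in WT-1 with the shared receptors included. Of 8 cell cycle genes 4 were higher (Mki67, Top2a, Ccnb2 and Birc5), and DESeq2 gave Mki67 an adjusted p of 0.41.

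By size among genes with one direction in 6 of 6 pools, those most above granzyme CD8 cells were Cd40lg, Tnfrsf4, Maf, Tmem64, Kif22, Anxa1, Socs2, Trat1, Ass1 and Trib1. Ass1, an enzyme of arginine synthesis, was 80.9 to 518 against 64.1 to 84.6 CPM, and Socs2, a brake on cytokine signals, 58.6 to 145 against 22.7 to 35.0 CPM. Those most below were Klrc1, Ly6c2, Jaml, Cd160, Samd3, Prf1, Atp8b4, Slfn5, Gpr18 and Ly6c1. Ly6c2, a surface antigen of memory CD8 T cells, was 17.9 to 365 against 594 to 1105 CPM, without overlap.

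**Figure D5:**
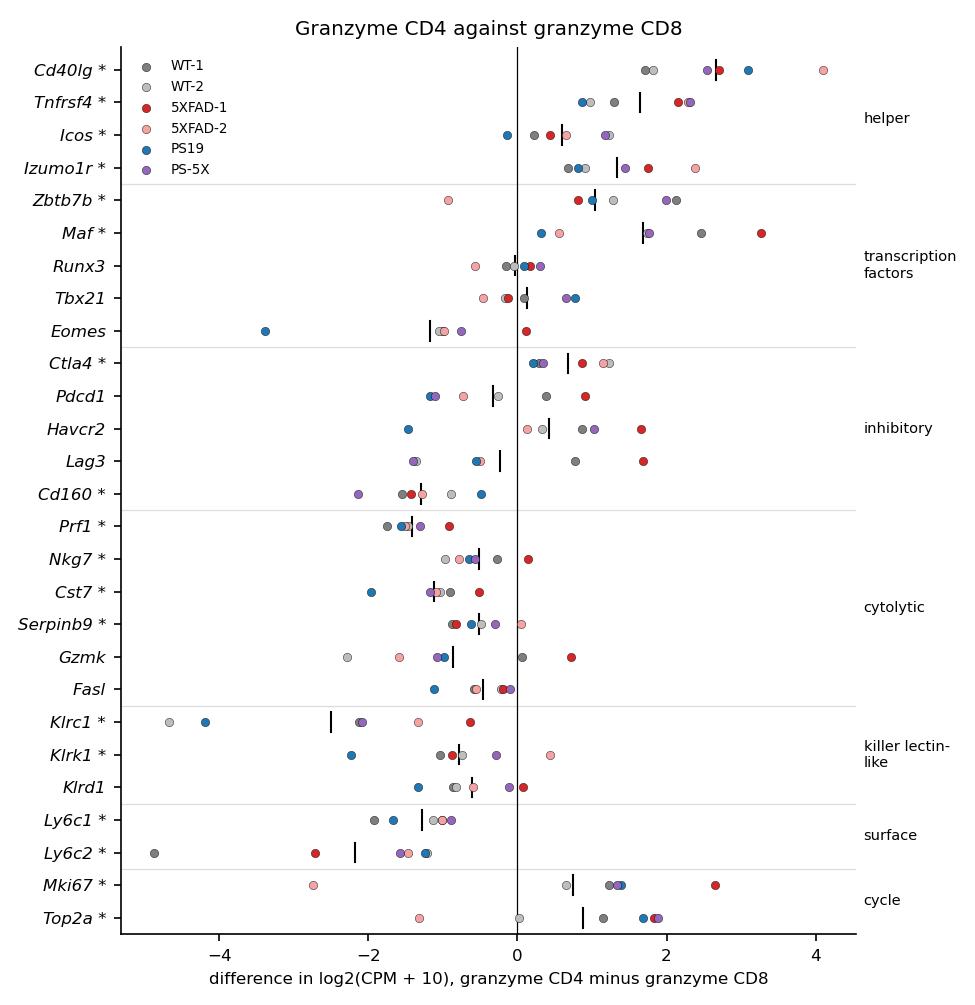
Difference in log2(CPM + 10) between granzyme CD4 and granzyme CD8 cells (x axis) for 27 genes (y axis, grouped by list); each point is 1 pool, the black tick the mean of 6 pools, and a star marks an edgeR adjusted p under 0.05. Cd40lg, Maf and Izumo1r lie to the right of 0 and Prf1, Cst7 and Ly6c2 to the left in all 6 pools.

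Within granzyme CD4 cells, amyloid and other pools were compared with tau as a second term, on 6 sums of 10 to 100 cells. Of 4190 genes tested, 3 (0.0716%) passed in edgeR, 2 higher (0.0477%) and 1 lower (0.0239%), 0 passed in DESeq2, and 398 had an unadjusted p under 0.05. Cxcl10, a chemokine that interferon induces, reached 266 CPM in PS-5X, 81.1 CPM for 5XFAD-1 and 17.1 CPM for 5XFAD-2, whereas PS19 had 7.61 CPM, WT-1 6.14 CPM and WT-2 none (log2 difference 4.77 ± 0.63, edgeR adjusted p = 0.013). Its UMIs came from few cells, 5 of 100 in 5XFAD-1 and 3 of 41 in PS-5X, and 1 PS-5X cell held 51 of 69 UMIs.

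Socs1, an inhibitor of cytokine signalling, was spread over more cells. It was 189 CPM in 5XFAD-1 (a UMI in 56 of 100 cells), 171 in 5XFAD-2 (5 of 10) and 216 in PS-5X (18 of 41), against 55.3 in WT-1 (8 of 17), 26.6 in WT-2 (4 of 23) and 53.3 in PS19 (7 of 22). The groups did not overlap, as for 656 (15.7%) of all genes tested, and the log2 difference was 2.09 ± 0.34 (edgeR adjusted p = 0.046). Gm43305, an annotated locus with no name of function, was 0 to 14.2 CPM in the amyloid pools and 67.5 to 133 in the others (edgeR adjusted p = 0.046). With the sequencing run as a further term, the replicate block, 9 genes passed. Without WT-1 no gene passed in edgeR (493 at an unadjusted p under 0.05), nor without WT-2 (279), and without 5XFAD-1 60 passed. The call for Socs1 was lost when WT-1, WT-2, 5XFAD-2, PS19 or PS-5X was left out, with edgeR adjusted p of 0.10 to 0.37 and log2 differences of 1.85 to 2.32. With the WT-1 cells that had a receptor of 5XFAD-1 left out, 30 passed, the 3 named genes among them. No gene of the cytolytic, inhibitory, helper or naive lists passed in this comparison, of 10, 11, 8 and 8 tested.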

How the data were processed

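The authors deposited 1 matrix of UMI counts (unnormalized) and a table of receptor contigs whose origin column, read per the file headers, ties cells to the 6 pools. Cell Ranger 6.0.1 and the builds GRCm38 and mm10 are named, without a role, per the submitters' processing notes; the kit was 10x 5′ v2 with V(D)J enrichment, per the labels' protocols. Cells under 500 genes or above 10% mitochondrial UMIs were dropped. UMIs were summed per pool and class (at least 10 cells) and tested with edgeR 4.0.16 (R 4.3.3; TMM, filterByExpr, quasi-likelihood, Benjamini-Hochberg 0.05) after a test on simulated data. The 7 genes of the gates and receptor segment genes were left out before adjustment. Ccl5, Havcr2 and Lag3 stayed in the fit and in its gene counts. Their p-values against granzyme-negative cells are not given, since these genes came with the definition. Levels are TMM-scaled CPM, and SE is the log2 difference over the square root of F.

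The pool was the block within pools. Across pools, replicate number 2 marks the separate sequencing run in the labels, so the numbers pair the samples and the block is that run. PS19 and PS-5X are single pools, and p-values measure the spread between pools only. Doublets were kept in the main results: Scrublet's own threshold marked 0% to 1.05% of barcodes, so an expected rate of 0.8% per 1000 barcodes was used for an alternative. Exact tests used scipy 1.17.1.

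Named genes were those past 0.05 with one direction in every pool whose mean reached 20 CPM, the 10 largest each way (5 for amyloid), and the genes of fixed lists. The members and lists were chosen with earlier results of these data known. DESeq2 1.42.0, other normalization, filters, thresholds, doublets, clones, depth and left-out pools were tried as alternatives. The clonotype and consensus tables were not used here. Some named genes are not reported here.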

Additional observations from a re-analysis of the deposited data

Results flagged for a closer look

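In 3 listed genes all amyloid pools went one way and all others the opposite way within their pool, and the difference between the groups was not tested. Listed and named genes were searched for such splits in both comparisons within pools. The share of all tested genes that split this way was not computed, so the count of 3 is not a result about these genes. Cd27, a costimulatory receptor, was higher in granzyme CD4 than in granzyme-negative CD4 cells in 5XFAD-1 (183 against 148 CPM), 5XFAD-2 (209 against 163) and PS-5X (159.2 against 155.9), and lower in WT-1 (122 against 159), WT-2 (83.0 against 136) and PS19 (41.2 against 147), a gap of 1.10 between the group means on the log2(CPM + 10) scale. Myc, a growth regulator, showed the same split, with 105 to 115 CPM in granzyme CD4 cells of the amyloid pools and 12.8 to 93.1 in the others, a gap of 1.46. Tnfsf11 (RANKL) was higher than in granzyme CD8 cells in the amyloid pools, at 39.0, 107 and 49.5 CPM, and lower in the others, with no UMI in WT-2 and PS19, a gap of 1.45.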

How the results depend on the processing

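The pool block and the sequencing run follow the labels. With granzyme-negative CD4 cells as the comparison, the count of genes was 585 to 933 with a pool left out, 731 without the replicate block, and beyond 1.5 times from 850 in 2 settings: 324 against cells without naive-marker UMIs and 129 thinned to 2000 UMIs (fewer cells and pools). Against those cells the log2 differences of Bhlhe40 (-0.15), Cxcr6 (-0.32), Id2 (-0.016), Igfbp4 (0.65) and Satb1 (0.44) turned. Against granzyme CD8 cells, 213 genes became 139 with DESeq2, 414 without the filter, 28 without the replicate block, 58 at 3 or more granzyme UMIs, 22 thinned, 333 at 2 or more Cd4 UMIs, and 108 (without PS19) to 248 with a pool left out; thinned, Bst2 (0.12) and Itgb7 (-0.034) turned. For amyloid within granzyme CD4 cells, 3 genes became 0 with DESeq2 (203 at an unadjusted p under 0.05), at 1 or more granzyme UMIs, with both receptor chains, without the large clones and at 2 or more Cd4 UMIs (364, 320, 500 and 266 in edgeR), 67 without the filter, 9 with the replicate block, 1 at 3 or more granzyme UMIs, 72 without shared receptors, 74 without the largest clones, 30 without the shared WT-1 cells, and 0 to 60 with a pool left out. The amyloid difference in share was 0.331 points without shared receptors, 0.826 thinned, 1.59 without the largest clones, -1.28 points without the large clones, -2.87 (without 5XFAD-1) to 6.51 with a pool left out, and 2.13 with the replicate block. The clone difference gave 28.3 points at 3 or more granzyme UMIs, 9.49 without shared receptors, 14.7 without the largest clones (14.659) or the large ones (14.716), 24.7 without the shared WT-1 cells (20.4 with the 9 remaining WT-1 cells), 34.3 at 2 or more Cd4 UMIs and 19.9 to 27.7 with a pool left out; all but 14.716 and 20.4 had 5 pools, too few for 0.05, and without the replicate block it was 25.4 (exact permutation p = 0.0022). The largest pool held 30.6% (PS-5X) without shared receptors, 38.4% without the largest clones, 27.9% (PS-5X) without the large clones and 56.8% at 2 or more Cd4 UMIs. The settings on shared WT-1 cells, large clones and 2 Cd4 UMIs were chosen after seeing the data. The setting on large clones dropped cells of 5XFAD-1 only and kept the WT-1 cells with the same receptors. Of named genes, 41 of 102, 8 of 46 and 0 of 3 in the 3 comparisons kept direction and call in every alternative that gave a value; the cause of other losses was not tested.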
